A study of Bos taurus with 20 samples.

Results

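Ovoid bovine conceptuses grown from embryos cultured with interleukin 6 (IL6) were compared with ovoid conceptuses grown from embryos given its carrier. Samples were taken when their title gave the shape as ovoid, which selected 12 of the 20 conceptuses of the series, 6 given IL6 and 6 controls. The other 8 were tubular. Recombinant bovine IL6 was given at 100 ng/ml in culture from day 5 after fertilisation in vitro, and blastocysts were collected for transfer on day 7.5, while control embryos stayed in the carrier medium. The day on which the conceptuses were recovered is not given in the sources used here. RNA came from whole individual conceptuses, so every cell type of a conceptus contributed to each value, and in such samples fewer cells of a type and less RNA per cell cannot be told apart.

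Between hatching and attachment to the uterus, the ruminant conceptus changes from a sphere through an ovoid and a tubular form to a filament, mainly by growth of its trophectoderm, the outer layer that signals pregnancy to the mother. IL6 is a cytokine that binds its receptor together with the shared subunit gp130 and acts largely through JAK kinases and the transcription factor STAT3. In cattle blastocysts it is known as a factor that supports the inner cell mass, the group of cells from which the embryo proper and the hypoblast arise.

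One library, control replicate 3, held 329666 assigned counts and was left out because it lay under 1000000. The 11 libraries used held 2298491 to 10296130 counts in the 6 IL6 conceptuses (4 females and 2 males) and 5197824 to 13940103 in the 5 controls (2 females and 3 males). Each title begins with a code, which the labels do not explain. Controls carried the code c201 (3 conceptuses used) or c5036 (2), and IL6 conceptuses c6186 (4, with 2 of each sex) or c9007 (2, both female). No code held both treatments, so code and treatment cannot be told apart. Code c6186 had the shallower libraries, from 2298491 to 5978192 counts, against 8589036 to 10296130 in c9007. A further code, c8086, held tubular controls only. As a check of the sex labels, 23 genes (0.156% of those tested) differed between males and females with edgeR, and 20 of them lay on the X chromosome. The files give genes by Ensembl identifier without names, and 0 of 27607 identifiers matched the gene table at hand, so trophoblast and other markers could not be checked and the genes are described by identifier, position, length and number of exon intervals on the assembly ARS-UCD1.2.

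No gene was called with edgeR between ovoid IL6 and ovoid control conceptuses at an adjusted p under 0.05, the threshold used to call a gene here. With edgeR's quasi-likelihood test 0 of 14738 genes were called (0%), and the smallest adjusted p was 0.241. At an unadjusted p under 0.05 there were 1483 genes (10.1%), of which 1071 were higher with IL6 (7.27%) and 412 lower (2.8%). At the same adjusted threshold DESeq2, run on those same libraries, did call genes: 155, with 133 higher and 22 lower. It had 1697 at an unadjusted p under 0.05. Over all genes tested 7257 log2 fold changes were positive and 7481 negative. The scaling between libraries centres these values, so their even split cannot show whether the transcriptome as a whole moved. Among genes with small p, higher ones outnumbered lower ones. That balance was not stable: it was 545 higher and 890 lower with sample quality weights, 447 and 511 without code c6186, and 250 and 222 with the code as a random block. With the shallow control kept, edgeR again called 0, with 793 genes higher and 448 lower at an unadjusted p under 0.05.

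The 2 genes with the smallest p among those higher with IL6 were high in 1 of the 2 IL6 codes. ENSBTAG00000054829 (chromosome 1, 626079 to 668340, plus strand, 984 exonic bases in 4 exon intervals) measured 10.1, 14.3, 17.1 and 36.7 CPM (counts scaled to a common library total) in the 4 conceptuses of c6186, but 0.575 and 1.49 CPM in those of c9007. The control values of that gene were 0.724, 0.677 and 1.01 CPM in c201 and 0.361 and 0.108 CPM in c5036. Code c6186 therefore lay above all other ovoid conceptuses used, while 1 c9007 value lay inside the control range and the other just above it. The fitted log2 fold change between IL6 and control was 4.50 ± 0.92 (SE, edgeR adjusted p = 0.241; DESeq2 adjusted p = 1.66e-04). ENSBTAG00000054829 overlaps 1 other annotated gene, and without strand their reads cannot be separated.

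ENSBTAG00000043985 (chromosome 12, 46109476 to 46548484, minus strand, 2303 exonic bases in 12 intervals) showed the same arrangement. It measured 5.24, 5.37, 8.77 and 8.04 CPM in c6186 and 0.383 and 0.572 CPM in c9007. In controls it stood at 0, 0.290 and 0 CPM in c201 and at 0.506 and 0.108 CPM in c5036, which is at most 7 counts in a library. The difference between IL6 and control was 4.26 ± 0.89 on the log2 scale (SE, edgeR adjusted p = 0.241), and its size is uncertain because the control values are close to 0. Both genes were called when c9007 was left out, with log2 fold changes of 5.01 and 4.87, and also when only IL6 replicate 5, of c9007, was left out. Without c6186 their log2 fold changes were 0.86 and 0.32, with sample quality weights 2.66 and 2.30, and with the code as a random block 3.16 and 2.78 (limma adjusted p = 0.998 for both).

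The 2 genes with the smallest p among those lower with IL6 behaved differently: they were low in both IL6 codes. ENSBTAG00000022813 (chromosome 18, 62159120 to 62167311, plus strand, 2049 exonic bases in 7 intervals, no overlapping gene) measured 53.6, 17.7 and 14.6 CPM in c201 and 56.6 and 24.9 CPM in c5036. With IL6 it measured 1.61, 13.2, 6.00 and 2.57 CPM in c6186 and 5.27 and 5.83 CPM in c9007. Every IL6 value lay below every control value, and the dropped shallow control, with 25 counts or 73.1 CPM, lay on the control side as well. Its log2 fold change was -2.54 ± 0.51 (SE, edgeR adjusted p = 0.241; DESeq2 adjusted p = 0.00133), and between the codes it was -2.31 and -2.82 for c6186 against c201 and c5036 and -2.37 and -2.88 for c9007 against those codes.

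ENSBTAG00000007383 (chromosome 24, 31380664 to 31692928, plus strand, 6135 exonic bases in 10 intervals) measured 5.91, 4.26 and 8.29 CPM in c201 and 14.2 and 8.34 CPM in c5036. It measured 0.403, 1.34, 6.00 and 1.45 CPM in c6186 and 2.49 and 1.71 CPM in c9007. The third c6186 conceptus, at 6.00 CPM, reached into the control range and the 5 other IL6 conceptuses lay below it. The log2 fold change was -2.25 ± 0.41 (SE, edgeR adjusted p = 0.241), and without that conceptus, IL6 replicate 3, it was -2.59 and was called (edgeR adjusted p = 0.0204). The dropped shallow control held 0 counts of it, below every other ovoid value. ENSBTAG00000007383 overlaps 2 other annotated genes. The c6186 and c9007 means of the 2 lower genes differed by log2 values of 0.06 for ENSBTAG00000022813 and -0.06 for ENSBTAG00000007383, against 4.25 and 3.80 for the 2 higher genes.

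**Figure D1:**
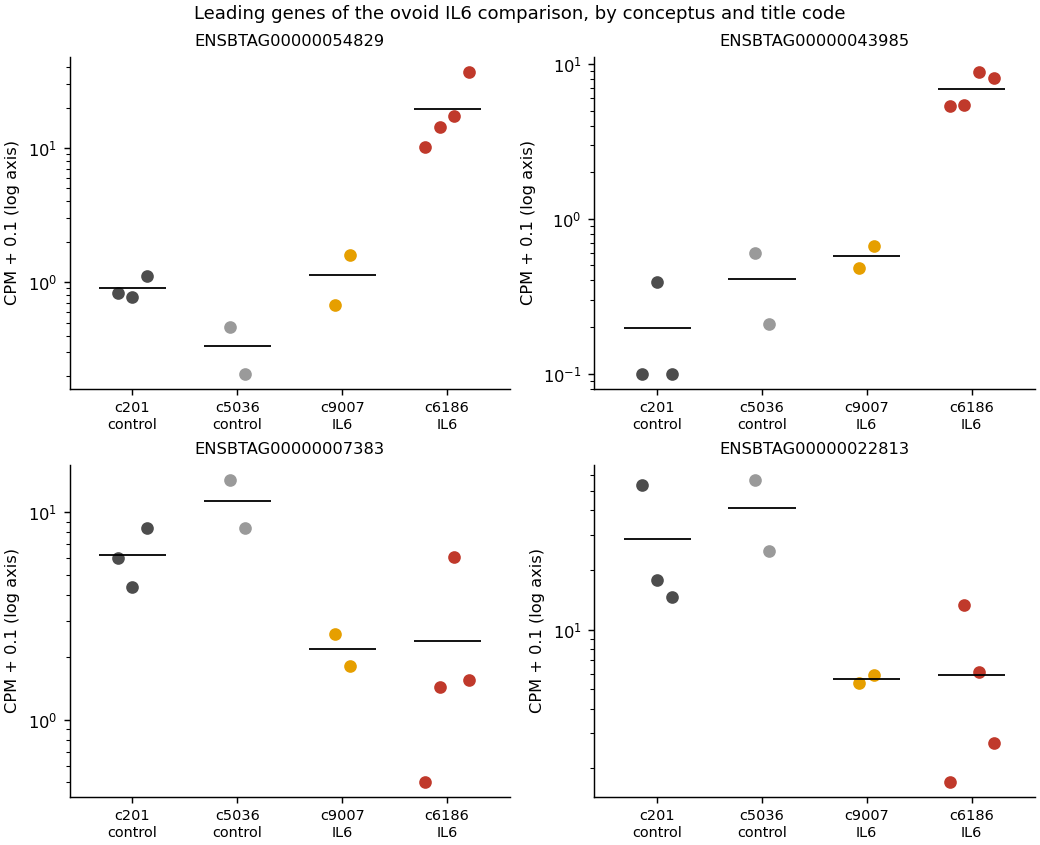
CPM plus 0.1 on a log axis of the 4 leading genes in each of the 11 ovoid conceptuses used, by title code and treatment. Points are conceptuses and bars are code means. The upper genes are high in the 4 conceptuses of c6186 only, among ovoid conceptuses, whereas ENSBTAG00000022813 and ENSBTAG00000007383 are lower in c9007 and c6186 than in both control codes, with 1 c6186 value of ENSBTAG00000007383 inside the control range.

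Codes were next compared with each other, in an edgeR model of code means over the 11 ovoid conceptuses, to see how far the IL6 difference was shared by its 2 codes. Genes were called only where c6186 was one of the pair, apart from 8 between the control codes. Between c6186 and c201, 244 genes were higher in c6186 (1.66%) and 23 lower (0.156%), and 16.5% of genes had an unadjusted p under 0.05. Between c6186 and c5036, 80 were higher (0.543%) and 8 lower (0.0543%), and 17.2% of genes had an unadjusted p under 0.05. Code c9007 had 0 genes called against c201 (303 at an unadjusted p under 0.05, 2.06%) and 0 against c5036 (302, 2.05%) with edgeR, the tool used for these comparisons. Between the control codes, 8 genes were lower in c201 than in c5036 (0.0543%) and 0 higher, with 421 at an unadjusted p under 0.05 (2.86%). These numbers rest on unequal group sizes, since c9007 and c5036 held 2 conceptuses each. Every pair of codes also shared the same estimate of spread for each gene, taken over all 11 conceptuses, and those of c6186 were the least alike. Without c6186 in the pair, the shares at an unadjusted p under 0.05 lay below what that threshold gives by chance. The 0 calls of c9007 therefore do not show that it was like the controls.

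The counts of c6186 moved when single libraries were left out and with depth. Where 1 of the 2 conceptuses of c5036 or c9007 was left out, the remaining one was assumed to vary like the other codes. Against c201 the number called was 530 without IL6 replicate 1, 104, 120 and 173 without control replicate 2, control replicate 1 and IL6 replicate 3, and 118 after all libraries were thinned to the total of the shallowest one. Against c5036, 0 genes were called without control replicate 5 or 6, and 9 to 47 without IL6 replicate 4, 3, 6, 5 or 2 or control replicate 1 or 2, while 146 were called without IL6 replicate 1. After thinning 43 genes were called against c5036, and with a term for sex 44. With the shallow control kept, 74 and 2 genes were called against c201 and c5036. The 8 genes between the control codes became 0 without any 1 of control replicates 1, 2, 4 and 5, after thinning and with the shallow control kept, 2 or 3 without control replicate 6 or IL6 replicate 2, 3, 4, 5 or 6, 5 with a term for sex, and 13 without IL6 replicate 1.

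**Figure D2:**
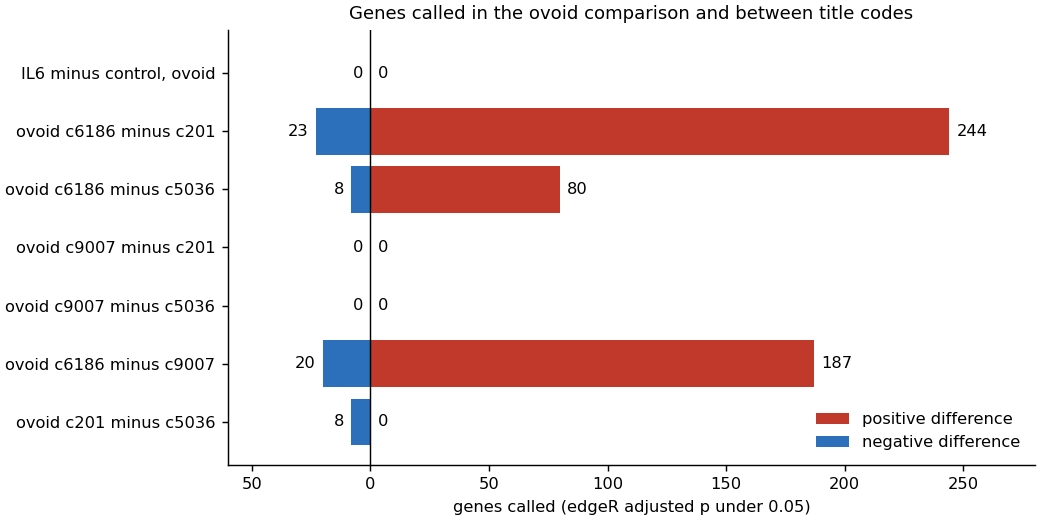
Number of genes called with edgeR at an adjusted p under 0.05 in the ovoid IL6 comparison and between the title codes of ovoid conceptuses, with positive differences to the right and negative ones to the left of 0. The longest bars are those with c6186, at 244, 80 and 187 genes higher in it, while both comparisons of c9007 with a control code are at 0.

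The comparisons of c6186 with one control code and of c9007 with the other share no library, so their values can be set beside each other. For c6186 against c201 and c9007 against c5036, 7316 of 14738 genes had the same sign (49.6%), and for c6186 against c5036 and c9007 against c201, 5848 (39.7%, or 35.3% with the shallow control kept). Genes are not independent of each other, and these shares describe the libraries only. The 244 genes called higher in c6186 than in c201 had a median log2 difference of 3.61 there, and of -0.82 in c9007 against c5036, where 58 of them were positive. The 80 called higher in c6186 than in c5036 had medians of 3.30 and, in c9007 against c201, of -0.14, with 37 positive. The genes called higher in c6186 were thus not higher in c9007 by their median.

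The difference between the IL6 codes was also tested directly, a comparison chosen after seeing the data. Between c6186 and c9007, edgeR called 187 genes higher in c6186 (1.27%) and 20 lower (0.136%), and 15.7% of genes had an unadjusted p under 0.05. Over the 187 genes, the median CPM of a library ran from 9.08 to 14.96 in c6186, from 0.575 to 0.914 in c9007, from 0.606 to 0.774 in c201 and from 1.62 to 1.88 in c5036. The gap between c6186 and c9007 follows from how these genes were chosen, as it does for the 20 lower genes. Genes high in c6186 alone could also pass the low-count filter of edgeR through that code. The control codes did not enter that difference, and their levels over the 187 genes were low as well. The 20 lower genes had medians of 11.96 to 21.96 CPM in c6186, 44.2 to 48.2 in c9007, 30.3 to 41.5 in c201 and 32.7 to 38.2 in c5036. The number called was 6 without IL6 replicate 5 and 25 without IL6 replicate 6, each of which leaves c9007 with 1 conceptus, and it was 117 without IL6 replicate 3, 81 after thinning and 32 with the shallow control kept. With a term for sex, which matters because both c9007 conceptuses were female, it was 155.

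ENSBTAG00000050427 (chromosome 24, 62021927 to 62039637, plus strand, 1401 exonic bases in 8 intervals) had the largest fitted difference between the IL6 codes. It measured 14.1, 13.9, 20.8 and 21.4 CPM in c6186 and had 0 counts in both c9007 libraries. In controls it had 0 counts in the 3 libraries of c201 and stood at 0.722 and 0.650 CPM in c5036. Set against a floor of 3 counts over both c9007 libraries (0.156 CPM), its c6186 mean of 17.5 CPM was at least 112-fold higher (edgeR adjusted p = 0.00207). ENSBTAG00000016247 (chromosome 6, 21354118 to 21442491, plus strand, 2658 exonic bases in 5 intervals) measured 3.03, 4.25, 8.31 and 5.47 CPM in c6186 and had 0 counts in c9007, at least 33.7-fold higher against the same floor (edgeR adjusted p = 0.0116). Its ovoid controls ran from 0 to 1.23 CPM, while the dropped shallow control held 2 counts of it, or 5.85 CPM, above 3 of the 4 c6186 values. In the 5 controls used, both genes were below every c6186 conceptus.

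Of the genes lower in c6186 than in c9007, ENSBTAG00000015582 (chromosome 5, 73623293 to 73630548, plus strand, 2489 exonic bases in 7 intervals) had the largest difference and was abundant. It measured 15.1, 45.2, 35.6 and 61.8 CPM in c6186 and 691 and 505 CPM in c9007, lower in c6186 by -3.92 ± 0.44 on the log2 scale (SE, edgeR adjusted p = 0.00207). Controls were split in the same way, with 440, 833 and 636 CPM in c201 and 72.9 and 70.7 CPM in c5036. High values therefore occurred in 1 control and 1 IL6 code, and the difference between IL6 and control was -1.23 ± 1.08 (SE, edgeR adjusted p = 0.698). ENSBTAG00000049919 (chromosome 2, 8776893 to 8875333, plus strand, 2182 exonic bases in 8 intervals, overlapping 1 other gene) measured 18.8 and 4.46 CPM in c9007 and 0.224 to 2.25 CPM in the 9 other ovoid conceptuses. Its log2 difference of -3.31 ± 0.69 (SE, edgeR adjusted p = 0.0445) leans on a single conceptus of c9007.

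Genes that separated all IL6 from all control conceptuses were few. In 45 genes (0.305%) the lowest IL6 value lay above the highest control value, and in 44 (0.299%) the order was reversed, together 0.604% of those tested. Were conceptuses exchangeable, a gene would separate in either direction with a probability of 0.00433. Many of these genes are therefore to be expected by chance. The 45 higher genes had a median log2 fold change of 0.78, with code medians of 0.95 and 0.94 for c6186 and 0.47 and 0.36 for c9007 against c201 and c5036. The 44 lower genes had a median of -0.99, with code medians of -1.17 and -1.14 for c6186 and -0.67 and -0.69 for c9007. The sign of these code medians follows from how the genes were chosen, and their sizes are not free of that choice either, since c6186 supplied 4 of the 6 IL6 conceptuses. The 1071 genes higher at an unadjusted p under 0.05 had code medians of 1.05 and 1.05 for c6186 and of 0.18 and 0.10 for c9007. For the 412 lower genes the medians were -0.72 and -0.78 in c6186 and -0.25 and -0.25 in c9007. The 1071 and 412 genes were chosen by p from these same values, so the signs and sizes of their code medians are not free of that choice either.

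The structure of these genes was described without a test. Of the 45 higher genes, 28 had at least 3000 exonic bases and 14 at least 20 exon intervals, with a median length of 3309 bases. Of the 44 lower genes, 10 had at least 3000 bases and 2 at least 20 intervals, with a median length of 1589.5 bases. Over all genes tested the median length was 2343 bases, 34.4% had at least 3000 bases and 14.7% had at least 20 intervals.

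Tubular conceptuses, fitted alone, gave libraries that the choice of these genes had not used, although 3 of their 4 codes, c5036, c6186 and c9007, also occur among ovoid conceptuses. In them 44 of the 45 higher genes had a positive log2 fold change with IL6 (median 0.48) and 37 of the 44 lower genes a negative one (median -0.37), while 49.9% of all genes were positive and 0 were called (922 at an unadjusted p under 0.05 with edgeR). A fit on the ovoid conceptuses alone, over the same 14738 genes and with the factors of all 19 libraries, gave 896 genes higher (6.08%) and 441 lower (2.99%) at an unadjusted p under 0.05. Filtered and scaled on the ovoid conceptuses alone, which left 13723 genes, it gave 900 and 333. Of the 896, 832 were positive in tubular conceptuses (92.9%), with a median of 0.52, and of the 441, 382 were negative (86.6%), with a median of -0.34. The sets of the fit over both shapes gave 94.4% and 88.1%. That look-up was chosen after seeing the data.

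Within tubular conceptuses the codes ranked as they had in ovoid ones. The 896 genes had medians of 0.99 and 0.83 in tubular c6186 against c5036 and c8086, and of 0.30 and 0.16 in tubular c9007 against these codes. The 441 genes had medians of -0.67 and -0.66 for c6186 and -0.18 and -0.11 for c9007. Of the 187 genes called higher in ovoid c6186 than in ovoid c9007, 179 (95.7%) were also higher in tubular c6186 than in tubular c9007. Of all genes tested, 48.7% were higher in tubular c6186. The median difference of the 187 was 1.34 in tubular against 4.23 in ovoid conceptuses. At an unadjusted p under 0.05 there were 72 of the 187, beside 3122 of all 14738 genes, and edgeR called 0 in that tubular comparison. The direction of the difference was therefore shared by both shapes for most of these genes, but its size was smaller in tubular ones. Over these genes the 2 tubular c6186 libraries had medians of 3.56 and 9.76 CPM and the 2 tubular c9007 libraries 1.60 and 3.58 CPM. Thus 1 tubular c6186 library stood at the level of 1 tubular c9007 library.

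**Figure D3:**
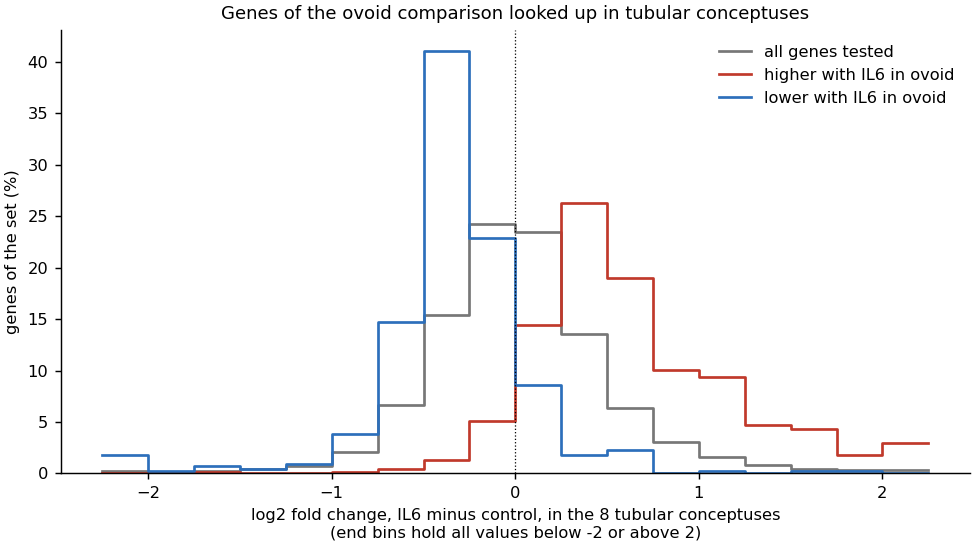
Distribution of the log2 fold change between IL6 and control in the 8 tubular conceptuses (x axis) as a percentage of each gene set (y axis), for all 14738 genes and for the 896 higher and 441 lower genes of the fit on ovoid conceptuses alone. The higher set is shifted to the right, with 832 genes above 0, and the lower set to the left, with 382 below 0.

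Single genes differed in how they carried over. ENSBTAG00000022813 measured 55.6, 54.7, 24.9 and 68.8 CPM in the 4 tubular controls and 5.03, 20.8, 21.7 and 19.9 CPM in the 4 tubular IL6 conceptuses, again without overlap. ENSBTAG00000054829, which in ovoid conceptuses was high in c6186 alone, was high in both codes in tubular ones, at 4.61 and 10.1 CPM in c6186 and 5.29 and 3.20 CPM in c9007 against 0.150 to 1.30 CPM in controls. ENSBTAG00000007383 ran from 7.54 to 13.5 CPM in tubular controls and from 3.98 to 10.2 CPM with IL6, with overlap. ENSBTAG00000015582 again stood higher in c9007, at 167 and 242 CPM, than in c6186, at 17.2 and 46.4 CPM. The other genes named between the IL6 codes were closer in tubular conceptuses. ENSBTAG00000050427 measured 3.77 and 12.4 CPM in c6186 and 0.674 and 3.67 CPM in c9007. ENSBTAG00000016247 measured 0.838 and 4.41 CPM in c6186 and 0.843 and 1.11 CPM in c9007. ENSBTAG00000049919 measured 0.419 and 2.36 CPM in c6186 and 0.682 and 1.01 CPM in c9007. The test of whether the IL6 effect differed between tubular and ovoid conceptuses called 0 genes with edgeR and 0 with DESeq2, with 106 at an unadjusted p under 0.05 in edgeR, which does not show that the effects are alike.

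Gene classes by exonic length moved apart in the ovoid comparison. Pooled over the title codes, genes of at least 3000 bases and those under 300 bases were shifted toward higher values with IL6. Those between 300 and 3000 bases were shifted toward lower ones, mainly against c201. Of 882 genes with at least 6000 exonic bases, 585 had a positive log2 fold change (median 0.18), and at an unadjusted p under 0.05 17.6% of the class was higher with IL6 and 1.36% lower. From 3000 to under 6000 bases 2361 of 4190 genes were positive (median 0.06), with 9.02% higher and 1.69% lower. Genes of 1000 to under 3000 bases had 3301 of 7514 positive (median -0.05) and those of 300 to under 1000 bases 608 of 1572 (median -0.11, or -0.06 with the shallow control kept), the latter with 3.69% higher and 3.63% lower. Of 580 genes under 300 bases, where small noncoding RNAs are found, 402 were positive (median 0.29), with 11.7% higher and 0.690% lower. The median over all genes was -0.01.

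Classes by number of merged exon intervals followed a like course. Genes with 20 or more intervals had 1403 of 2165 positive (median 0.13), with 13.5% higher and 1.06% lower at an unadjusted p under 0.05. Genes with a single interval had 819 of 1318 positive (median 0.17), with 7.21% higher and 1.14% lower. The classes of 2 to 4 and of 5 to 9 intervals had medians of -0.07 each. Against c5036 alone, their medians were -0.01 and -0.04 for c6186 and 0.01 and 0.00 for c9007. The class of 10 to 19 stood at -0.02 and changed sign, to 0.03, with the shallow control kept.

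Over the title codes, the shift of the shortest genes belonged to c6186. For genes under 300 bases the median was 0.50 and 0.52 for c6186 against c201 and c5036, and -0.07 and -0.04 for c9007 against them. Within c6186 it was uneven, since the class median of log2 CPM, as a deviation from the mean over the ovoid conceptuses, was 0.58 and 0.55 in IL6 replicates 2 and 3 but 0.05 in replicates 1 and 4, inside the range of -0.17 to 0.05 of all other conceptuses. Single-interval genes gave 0.25 and 0.42 for c6186 and -0.15 and 0.03 for c9007. For genes of 300 to under 1000 bases the medians were -0.17 and 0.09 for c6186 and -0.19 and 0.04 for c9007. Both IL6 codes thus lay below c201 but not below c5036 there, and c201 minus c5036 was 0.24. From 1000 to under 3000 bases the medians were -0.09 and -0.02 for c6186 and -0.05 and 0.00 for c9007. For genes of at least 6000 bases the medians were 0.26 and 0.15 for c6186 and 0.14 and -0.01 for c9007, so c9007 exceeded c201 but not c5036. The control codes themselves differed by -0.18 (c201 minus c5036) in this class. By conceptus its deviation was -0.16 in IL6 replicate 1, 0.32, 0.13 and 0.10 in the other three of c6186, 0.07 and -0.02 in c9007, -0.14, -0.08 and -0.17 in c201 and 0.13 and -0.06 in c5036, so IL6 and control values overlapped. Genes with 20 or more intervals were alike in this, at 0.20 and 0.13 for c6186 and 0.10 and 0.00 for c9007.

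**Figure D4:**
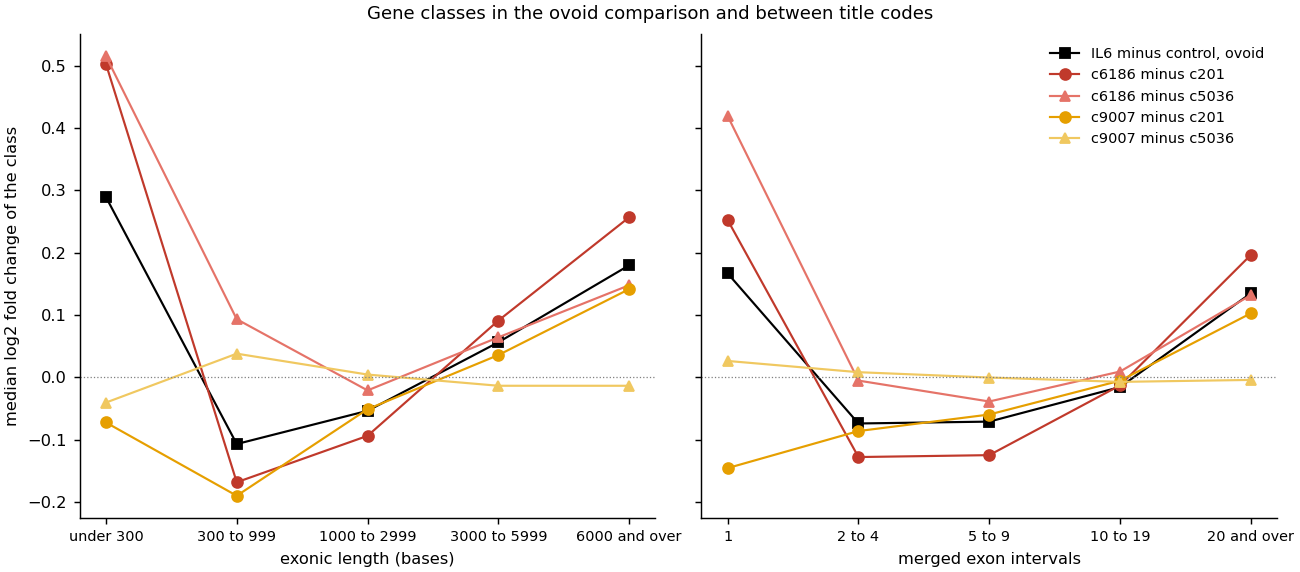
Median log2 fold change (y axis) of genes grouped by exonic length (left) and by number of merged exon intervals (right), for the ovoid IL6 comparison and for each IL6 title code against each control code. The shortest class stands at 0.50 and 0.52 for c6186 and at -0.07 and -0.04 for c9007, and the longest class is above 0 in each comparison except c9007 against c5036, at -0.01.

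Among chromosomes, 25 and 29 had the lowest medians, both -0.13, with 179 of 531 and 152 of 424 genes positive. These medians were -0.08 and -0.05 when the shallow control was kept. Their medians were -0.21 and -0.17 for c6186 against c201 and -0.21 and -0.24 against c5036, but 0.04 and -0.02 for c9007 against c201 and -0.01 and -0.04 against c5036. At an unadjusted p under 0.05, chromosome 24 had the largest share of higher genes among the chromosomes, 13.1% of 214, followed by chromosome 1 with 11.9% of 596. For chromosome 1 the median was 0.07 in the ovoid comparison, 0.12 and 0.16 for c6186 against c201 and c5036, and -0.07 and -0.02 for c9007. Chromosome X stood at -0.02 over 510 genes. Its sign changed with RLE factors, with the shallow control kept and in the fit on ovoid conceptuses alone.

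The 27 tested genes of the mitochondrial genome, which encodes subunits of the respiratory chain with their ribosomal and transfer RNAs, had 21 positive log2 fold changes and a median of 0.24. Against c201 the median was 0.55 for c6186 and 0.49 for c9007, and against c5036 it was 0.00 and -0.07. Conceptuses of 1 code were far apart: the deviation of the class was 0.58 and -0.44 in the 2 of c5036 and 0.55 and -0.40 in those of c9007, against -0.45, -0.09 and -0.55 in c201 and -0.53, 0.29, 0.32 and 0.59 in c6186. The difference between the control codes thus rested on control replicate 5, and control replicate 6 lay with c201. With the shallow control of c201 kept, the median was 0.53.

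The share of all counts that fell on a gene class was compared between conceptuses with exact permutation tests over the 462 splits of 6 and 5, whose smallest p is 0.00433. These splits take conceptuses as exchangeable and take no account of the title codes, which are nested in treatment. Genes of at least 6000 bases took 14.5%, 17.7%, 15.0% and 14.1% of counts in c6186, 13.6% and 13.0% in c9007, 12.4%, 11.7% and 11.5% in c201 and 14.1% and 12.6% in c5036. IL6 and c5036 values overlapped, and all c201 values were below all IL6 values. The mean of the IL6 group was 14.7% ± 1.62 (SD, n = 6) and that of the controls 12.5% ± 1.03 (SD, n = 5), which is a difference of 2.18 percentage points (two-sided exact permutation p = 0.0238, adjusted p = 0.0952 over 8 quantities).

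Genes with 20 or more exon intervals, many of them in the previous class, took 23.7%, 27.9%, 24.4% and 23.8% in c6186 and 23.9% and 23.3% in c9007. In controls they took 21.6%, 21.3% and 21.2% in c201 and 24.1% and 22.8% in c5036. Here the c201 values were again below all IL6 values, while 1 c5036 value lay inside the IL6 range. The means were 24.5% ± 1.72 (SD, n = 6) and 22.2% ± 1.24 (SD, n = 5), with the same exact permutation p of 0.0238 (adjusted p = 0.0952). Both shares were added after seeing the data. With the shallow control kept, the differences were 2.46 and 2.90 percentage points and both passed (exact permutation, adjusted p = 0.0433). That library had the lowest shares of all ovoid conceptuses, 10.8% and 18.5%. It also had 4.46% of its counts on nuclear genes under 300 bases, where the others ran from 0.622% to 1.61%. Both passes with it kept thus rest on a library of unlike composition. The second share also passed without control replicate 5 (exact permutation, adjusted p = 0.0381).

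The 6 other quantities gave no difference past the threshold. For mitochondrial genes the IL6 mean was 2.50% ± 0.744 (SD, n = 6) and the control mean 1.73% ± 0.563 (SD, n = 5), with an exact permutation p of 0.0996 (adjusted p = 0.222). Nuclear genes under 300 bases took 1.04% ± 0.317 (SD, n = 6) and 0.816% ± 0.130 (SD, n = 5; exact permutation p = 0.167, adjusted p = 0.222), with the highest value, 1.61%, in IL6 replicate 3, the shallowest library used. Single-interval nuclear genes took 5.90% ± 0.880 (SD, n = 6) and 5.50% ± 0.616 (SD, n = 5; exact permutation p = 0.403, adjusted p = 0.460), and genes on unplaced scaffolds 2.55% ± 0.621 and 2.53% ± 0.353 (exact permutation p = 0.939). The 10 most abundant genes of a library took 8.35% ± 1.64 (SD, n = 6) and 7.08% ± 0.392 (SD, n = 5; exact permutation p = 0.154, adjusted p = 0.222). As log2, the total of counts averaged 22.4 ± 0.765 (SD, n = 6) in IL6 libraries and 23.1 ± 0.512 (SD, n = 5) in control libraries, with an exact permutation p of 0.117 (adjusted p = 0.222). With the shallow control kept, the differences of the single-interval share, the share under 300 bases and the log2 total turned to -0.66, -0.38 and 0.10.

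**Figure D5:**
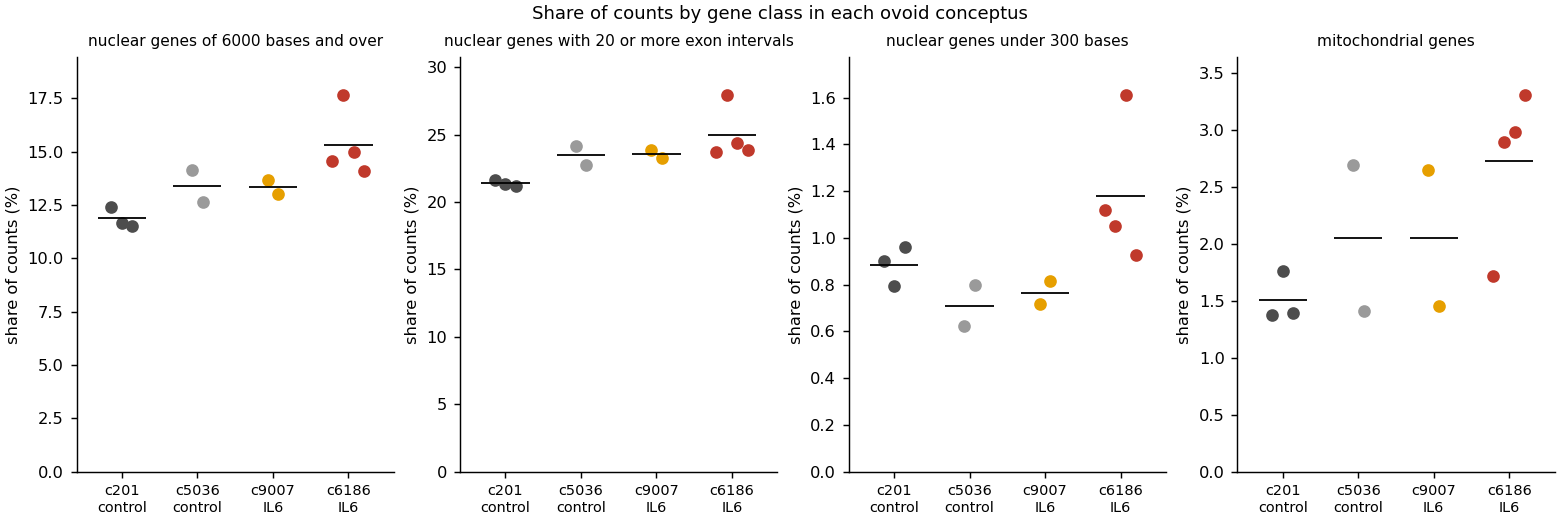
Share of assigned counts (%) on 4 gene classes in each of the 11 ovoid conceptuses used, by title code and treatment, with each axis starting at 0. Points are conceptuses and bars are code means. For long genes and genes with many exon intervals the c201 conceptuses are lowest, at 11.5% to 12.4% and 21.2% to 21.6%, and the highest conceptus, at 17.7% and 27.9%, belongs to c6186.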

How the data were processed

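Per the labels' protocols, total RNA of whole conceptuses was depleted of ribosomal RNA and sequenced in pairs. Per the file headers, the authors counted read pairs for each gene of Ensembl release 105 with featureCounts 2.0.1, ignoring strand and skipping duplicates, and deposited these counts unnormalised on ARS-UCD1.2. Their processing notes also list HISAT2, SAMtools and Picard. Reads of overlapping genes cannot be separated.

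Of 27607 genes, 14738 passed edgeR's default filter. One robust quasi-likelihood model in edgeR 4.0.16 (TMM factors, 4 groups and sex) was fitted to the 19 libraries over 1000000 counts. Code means were fitted to the 11 ovoid libraries without sex. Adjusted p-values are Benjamini-Hochberg. SE is the ratio of the log2 fold change to the root of F. CPM used TMM factors. Exonic length is the deposited length, and overlapping exons were merged into intervals. DESeq2 1.42.0, limma 3.58.1, R 4.3.3 and Python 3.11.15 were also used. The fits were tried on simulated counts drawn without differences between title codes, so that check does not cover the nesting of code in treatment.

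Named genes are at most 2 per direction and comparison: the largest log2 differences among called genes whose mean log2 CPM reached 1, or the smallest p where none was called. The gene and marker lists drawn up by symbol could not be used, because no symbols could be matched. The comparisons, classes and lists were chosen with earlier results of these data known. The comparison of c6186 with c9007, the tubular look-ups, the shares of long and many-exon genes, thinning, and the sex term and left-out conceptuses of the code model were added after seeing the data. Libraries come from different conceptuses. With the code as a random block, the correlation within codes was 0.166, so p-values that take conceptuses as independent are likely too small.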

Additional observations from a re-analysis of the deposited data

Results flagged for a closer look

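Of 32 groups of values checked for a sample far from the others, 3 held one, and chance alone flags about 1 in 20 such groups. Control replicate 5, of c5036, had the lowest share of counts on single-interval nuclear genes among controls, 4.44%, with a gap to the next value of 0.750 of the range of the group, against a limit of 0.71. Control replicate 2, of c201, had a share of 6.40% on its 10 most abundant genes, with a gap of 0.770 of the range against the same limit. IL6 replicate 2, of c6186, had 27.9% of its counts on nuclear genes with 20 or more exon intervals, with a gap of 0.763 of the range against a limit of 0.625 for 6 samples.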

How the results depend on the processing

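No paired analysis was possible because the replicate numbers follow accession order and no title code holds both treatments. The ovoid comparison had 0 genes called under RLE factors, no low-count filter, a CPM filter, no sex term, ovoid conceptuses alone and removal of mitochondrial genes. A random code term, fitted with limma (correlation 0.166), gave 0 as well. The comparison also had 0 with thinning, quality weights, a minimum fold change, the shallow control kept, and without c6186, c201, c5036 or c8086. It had 783 (605 higher, 178 lower) without c9007 and 155 with DESeq2, and 0 to 24 with 1 conceptus left out (24 without IL6 replicate 5, 1 without IL6 replicate 3). The 1483 genes at an unadjusted p under 0.05 became 472 with the random code term (250 higher, 222 lower), 766 without c201, 958 without c6186 (447 higher, 511 lower), 3385 without c9007 and 1103 to 1990 with 1 conceptus left out. Quality weights turned the balance to 545 higher and 890 lower. Leaving out conceptuses gave 0 for the difference between shapes, 104 to 530 calls for c6186 against c201, 0 to 146 against c5036, 6 to 243 against c9007, 0 to 13 between the control codes, and 0 for c9007 against either control code. With the shallow control kept these became 74, 2, 32 and 0, thinned 118, 43, 81 and 0, and with a sex term c6186 against c5036 gave 44 and the control codes 5. The same-sign share of 39.7% became 35.3% with the shallow control. Of shares, that of unplaced scaffolds ran from -0.19 to 0.19 percentage points with 1 conceptus left out, and was -0.06, -0.08 and -0.01 without control replicates 4 and 5 and IL6 replicate 4. The shallow control turned the single-interval share (-0.66), the share under 300 bases (-0.38) and the log2 total (0.10). The log2 fold changes of the 4 leading genes kept their sign wherever they were computed, which excludes the minimum fold change and, for ENSBTAG00000043985, the fit filtered on ovoid conceptuses. All 4 were called with DESeq2 and without c9007, but without c6186 those of the 2 higher genes fell to 0.86 and 0.32. The causes were not tested. Low depth in c6186 limits genes of low abundance, and with 2 conceptuses in c9007 and in c5036 few or no calls say little about the absence of differences.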

Other observations

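Some genes were near absence in every ovoid conceptus except those of c6186. At a level of 1 CPM, 89 of the 14738 genes tested lay above it in all 4 ovoid conceptuses of c6186 and below it in the 7 others. The reverse was seen in 5 of the 14738. The low-count filter of edgeR needs enough counts in only 4 libraries, the size of the smallest group, so genes high in c6186 alone could pass it. Of the 89, 37 were above 1 CPM in both tubular conceptuses of c6186 and 43 in at least 1 of the 6 other tubular conceptuses. Of the 5, 0 were above it in both tubular c6186 conceptuses and 5 were above it in at least 1 of the others. These counts were chosen after seeing the data and have no test.

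Of the 187 genes called higher in ovoid c6186 than in c9007, 48 (25.7%) had 20 or more exon intervals and 3 (1.60%) a single interval, while these classes made up 14.7% and 8.94% of all genes tested. The difference was not tested, and the classes differ in level, with a median of 57.4 CPM and 3.89 CPM. By length, 2.27% of genes of at least 6000 bases and 0.345% of genes under 300 bases were among the 187. The shift of the shortest genes in c6186 was therefore seen in their class median and hardly in the genes called.

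Adjacent genes on a chromosome were on the same side more often than the background share. Among 13388 pairs of adjacent tested genes whose spans did not overlap, the next gene was also higher with IL6 at an unadjusted p under 0.05 in 150 of 974 cases (15.4%). Over all these pairs, 7.26% of genes in that position were higher. For lower genes it was 30 of 375 (8%) beside 2.88%. Pairs with overlapping spans, which can share reads in unstranded counts, were left out. The cause of these figures was not tested.

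The libraries of c6186 were the least alike. Across genes, the Spearman correlation between pairs of its conceptuses ran from 0.826 to 0.961 (median 0.920), whereas pairs within c201 ran from 0.955 to 0.975 and the single pairs of c5036 and c9007 gave 0.975 and 0.981. Conceptuses of c9007 correlated with controls of c5036 at 0.969 to 0.980 and with those of c201 at 0.959 to 0.980. The code was uneven in this: the median correlation with the other ovoid conceptuses was 0.872, 0.921, 0.916 and 0.950 in IL6 replicates 1 to 4. It ran from 0.954 to 0.966 in the conceptuses of the other codes. Depth differed in the same direction, with lower totals in c6186. Control replicate 4, at 0.954, held 5197824 counts and IL6 replicate 1 held 5032351. The part of depth in these values was not tested.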
